A study of Mus musculus with 8 samples.

Results

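The 9 genes described here encode transient receptor potential (TRP) channels, and they are *Trpa1*, *Trpv2*, *Trpv4*, *Trpm2*, *Trpm3*, *Trpm4*, *Trpm7*, *Trpc1*, and *Trpc6*. They were taken by symbol from a table of 25239 genes measured by RNA sequencing in the mouse corpus callosum, the largest white matter tract of the brain. The set names *Trpa1*, the gene targeted in the study, and 8 other channels of the TRPV, TRPM, and TRPC families. The question was which TRP channels the tissue expresses and whether any shifts with the genotype label or with the operation.

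RNA came from adult male mice, C57BL/6 by the labels and C57BL/6J by the study's methods, labelled either wild type (WT) or *Trpa1* -/- (TRPA1-KO). Bilateral common carotid artery stenosis (BCAS), in which microcoils around the carotid arteries lower cerebral blood flow, was set against a sham operation that exposed the arteries and left the coils out. Of the 4 libraries with each label, 1 was sham from day 14 after the operation, and the BCAS libraries came from days 7, 10, and 14. With 1 library for each label and day, the 3 days stood in as replicates within a label, so the spread between libraries includes any change over time. By the study's methods, each sample was taken from a single mouse. The TRPA1-KO line is a constitutive knockout that was backcrossed to C57BL/6J, so the label refers to every cell type of the animal. The libraries held 7896071 to 12952093 reads on genes. A value of 3 reads, used here as the floor of detection, was worth 0.235 to 0.378 CPM (reads scaled to a common library size) in the single libraries. Intervals on reads are 95% Clopper-Pearson intervals and, like the floor, cover counting error only.

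TRP channels are tetrameric cation channels, and most of them let calcium into the cell. They open on physical or chemical cues such as heat, stretch, oxidants, or lipids, or downstream of receptors that activate phospholipase C. TRPA1 responds to reactive irritants and to hydrogen peroxide, and TRPM2 opens on ADP-ribose made under oxidative stress, which is why both are studied in poorly perfused brain tissue. In the brain, members of the family are found in neurons, astrocytes, microglia, and vessel cells, so bulk RNA of the corpus callosum adds up several cell types.

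The tissue label was checked against marker genes. Myelin markers were abundant (*Mbp*, 5896 CPM on average over 8 libraries), as a white matter sample should show. Neuronal markers were present too, led by *Snap25* at 2557 CPM, and 6 markers of striatal projection neurons, cells that do not lie in the corpus callosum, summed to between 524 and 1379 CPM. In bulk RNA of this kind, fewer cells of a type and less RNA per cell cannot be told apart.

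*Trpm3* is shown by sequence, because it gave the lowest p-value of the 9 genes in the comparison of BCAS with sham and because a microRNA gene lies inside it. *Mir204* sits in an intron of *Trpm3* on the same strand, and *Mir211*, its near twin, sits in *Trpm1* on the same strand. The RefSeq mature sequences (GRCm38.p6) lay at chr19:22750610-22750631 and chr7:64205831-64205852, both on the plus strand, and are printed with the seed (bases 2 to 8) in capitals.
mmu-miR-204-5p: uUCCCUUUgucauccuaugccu
mmu-miR-211-5p: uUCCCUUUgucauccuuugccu
The seed was the same in both, and the sequences differed at 1 of 22 positions. The table has a row for each of the hosted microRNA genes, and both were at 0 reads in all 8 libraries. The libraries were made from polyadenylated RNA, which does not measure mature microRNAs, so these zeros are not a reading of either microRNA.

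The RefSeq promoter table gives 2 start sites of *Trpm3*. Their promoters (250 bases before to 50 after the start, GRCm38.p6, plus strand) lay at chr19:22138796-22139095 and chr19:22447958-22448257. They are printed here to show where a motif of lowered oxygen fell, the core letters bound by hypoxia-inducible factors (ACGTG or GCGTG, either strand), in capitals.
Trpm3 promoter 1: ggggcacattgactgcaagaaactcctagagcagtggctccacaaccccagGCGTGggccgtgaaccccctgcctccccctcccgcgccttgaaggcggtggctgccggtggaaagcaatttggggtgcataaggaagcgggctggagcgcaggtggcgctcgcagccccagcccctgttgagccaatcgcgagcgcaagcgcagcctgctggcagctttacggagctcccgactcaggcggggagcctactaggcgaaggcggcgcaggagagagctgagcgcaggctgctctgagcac
Trpm3 promoter 2: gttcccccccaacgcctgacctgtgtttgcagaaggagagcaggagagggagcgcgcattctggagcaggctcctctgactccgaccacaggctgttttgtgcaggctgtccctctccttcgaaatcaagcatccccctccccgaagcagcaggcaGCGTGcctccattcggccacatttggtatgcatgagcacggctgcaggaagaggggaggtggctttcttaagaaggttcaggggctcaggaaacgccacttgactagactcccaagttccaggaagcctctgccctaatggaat
Each held 1 match. The first had 21 CpG dinucleotides and 66.7% G and C, and the second had 10 and 58%. RefSeq gave 10 promoters for 7 of the 9 genes, all but *Trpa1* and *Trpm4*. Of these 10 promoters, 6 held the core letters, with 6 matches at *Trpm7*, 1 at each *Trpm3* start, and 1 each at *Trpc6*, *Trpc1*, and *Trpm2*. Among 32851 mouse promoters of the same length, 43.8% held the letters. The antioxidant response letters TGACNNNGC were found, on either strand, at *Trpm7* alone, against 12.4% of all promoters. A match of letters is a description and was not set against the expression values.

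*Trpa1*, the sensor of irritants and oxidants, was read first in every library because it is the targeted gene. It lies on the minus strand of chromosome 1 from 14872648 to 14918862 (GENCODE M21, GRCm38), has 4263 exon bases, and overlaps no annotated gene. Under the WT label, 1 read was counted in the sham library (0.0782 CPM) and 0 in the BCAS libraries of days 7, 10, and 14. Under the TRPA1-KO label, 10 reads were counted in the sham library (0.959 CPM), 11 on day 7 (1.22 CPM), 3 on day 10 (0.320 CPM), and 7 on day 14 (0.728 CPM). Every library labelled TRPA1-KO was above every library labelled WT, and the groups did not overlap.

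The direction of *Trpa1* went against the genotype labels. Over all libraries, 31 of 38420258 reads under the TRPA1-KO label and 1 of 41028561 under the WT label fell on the gene, a ratio of 33.1 (exact 95% interval of the counts 5.52 to 1349). In the BCAS libraries alone the counts were 21 and 0. With the floor of 3 reads put in place of the 0, the level was 7.02-fold higher under the TRPA1-KO label. This value leaves out the counting error of the 21 reads and is not a confidence limit. The mean was 0.808 ± 0.383 CPM (SD, n = 4) under the TRPA1-KO label, and the exact two-sided permutation test over all 8 libraries gave p = 0.0286, the smallest value that 4 against 4 can give. With the 6 BCAS libraries it gave 0.10, again the smallest possible.

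The reads behind this are few. On day 10 under the TRPA1-KO label, the 3 reads had an interval of 0.0661 to 0.936 CPM. For the counts of 0 in the BCAS libraries labelled WT, the floor of 3 reads lay at 0.267 CPM on day 7, 0.378 CPM on day 10, and 0.329 CPM on day 14. The upper bounds of their Clopper-Pearson intervals were 0.328, 0.465, and 0.405 CPM on these days. The counts cover the whole gene, so the table does not show which exons the reads come from and does not test a deletion of part of the gene. For this reason the libraries are named by their label throughout. Every direction between labels given here is by label only, and the targeted gene itself goes against these genotype labels. Whether the WT and TRPA1-KO labels were exchanged was not tested, and an exchange of both sets of libraries would turn each of these directions. *Gfap*, an astrocyte gene whose values in every library are given with the cell type markers, was higher under the WT label than under the TRPA1-KO label on BCAS days 7 and 10 and lower on day 14.

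**Figure D1:**
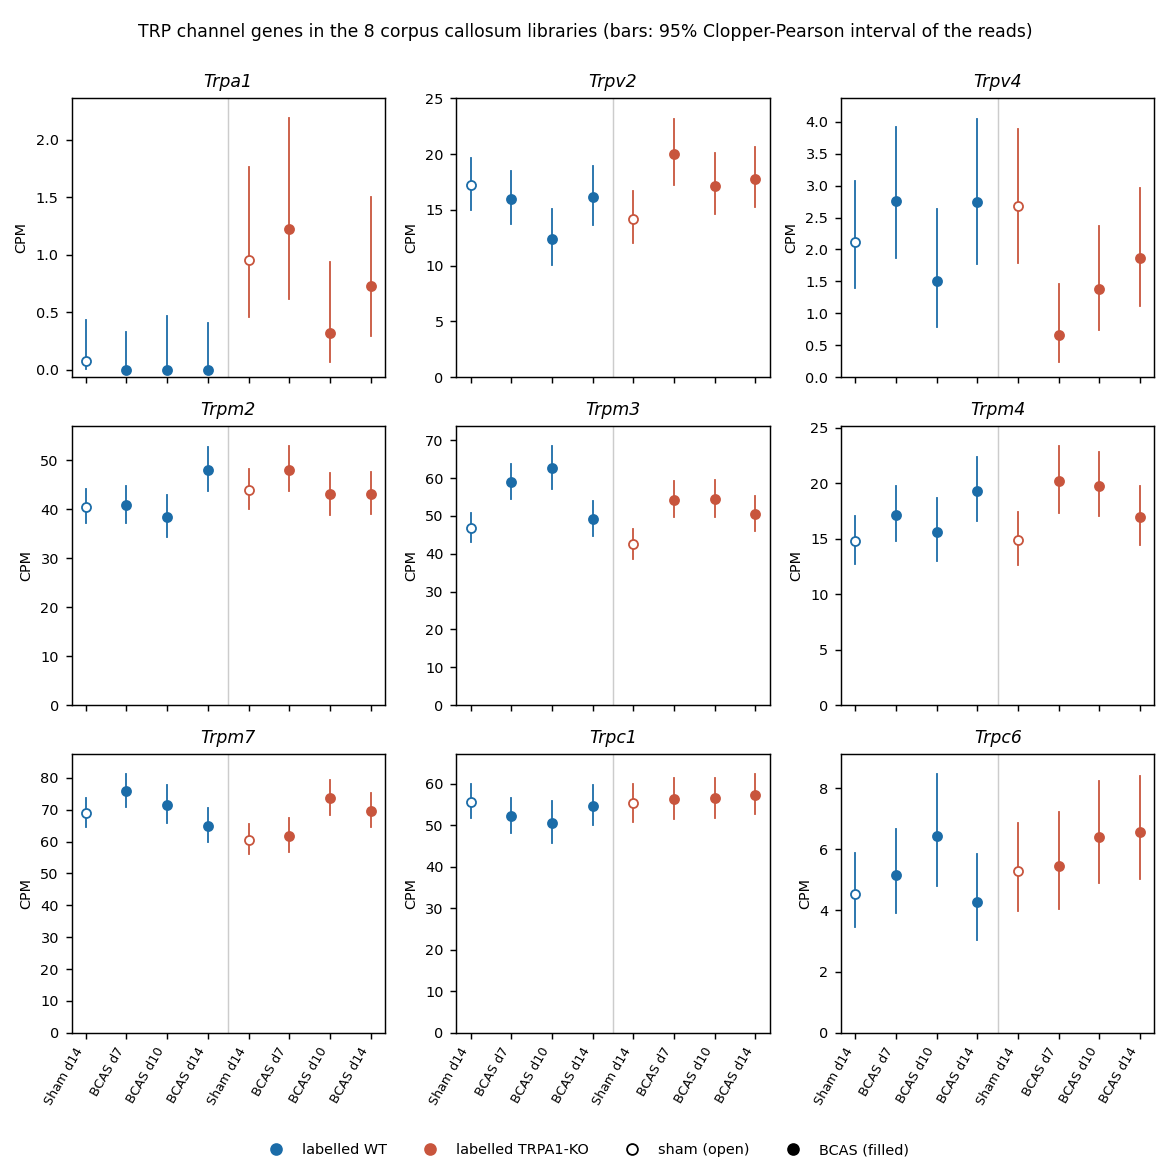
Each panel plots 1 TRP channel gene in CPM (y axis, linear, from 0) in the 8 libraries (x axis, with operation and day), blue for the label WT, red for TRPA1-KO, open for sham and filled for BCAS, with bars for the 95% Clopper-Pearson interval of the reads. *Trpa1* lies at or below 0.0782 CPM under the WT label and at or above 0.320 CPM under the TRPA1-KO label, and *Trpm3* is lowest in the sham libraries at 46.9 and 42.5 CPM.

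The levels of the 9 genes were compared per length, as CPM per kilobase (kb) of merged exon sequence, over the 8 libraries. *Trpc1*, a subunit of receptor-operated and store-linked channels, had the highest level at 6.83 ± 0.284 CPM per kb (SD, n = 8). *Trpm7*, a magnesium and calcium channel fused to a protein kinase, followed at 6.05 ± 0.485 CPM per kb. Their ranges overlapped, and *Trpc1* was the higher of the pair in 6 of 8 libraries.

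The middle of the order held the stretch- and lipid-responsive *Trpv2* at 3.65 ± 0.519 CPM per kb and the ADP-ribose-gated *Trpm2* at 3.47 ± 0.278 CPM per kb. These neighbours overlapped as well, with *Trpv2* higher in 5 of 8 libraries. All libraries put *Trpm7* above *Trpv2* and *Trpm2* above *Trpm3*, with no overlap of the ranges. *Trpm3*, a channel opened by the neurosteroid pregnenolone sulfate and by heat, had 2.15 ± 0.267 CPM per kb. *Trpm4*, which passes sodium and potassium rather than calcium and opens on intracellular calcium, had 1.60 ± 0.202 CPM per kb. *Trpm3* was above *Trpm4* in 8 of 8 libraries, although the ranges over all libraries overlapped.

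The lowest levels were those of *Trpc6*, *Trpv4*, and *Trpa1*. *Trpc6*, opened by diacylglycerol, had 1.09 ± 0.173 CPM per kb, and *Trpv4*, a sensor of osmotic and mechanical load, had 0.483 ± 0.185 CPM per kb. Neither range touched that of its higher neighbour. *Trpa1* had 0.0971 ± 0.115 CPM per kb, a mean that rests on the label TRPA1-KO, and it was below *Trpv4* in 7 of 8 libraries. Among 17634 tested genes with a known length, *Trpc1* stood at the 60.6th percentile, *Trpm2* at the 44.5th, *Trpv4* at the 16.6th, and *Trpa1* at the 4.86th.

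The rest of the family was read as a list of 19 genes, the other TRPC, TRPV, TRPM, polycystin, and mucolipin channels. Of the 28 genes together, 19 averaged at least 1 CPM, 8 of the 9 described here and 11 of the others. Named by rule are the 3 of the list with the highest level per length. *Mcoln1*, a lysosomal calcium channel, was above all the family with 9.06 ± 0.444 CPM per kb (SD, n = 8). *Pkd2l2* had 5.88 ± 0.373 CPM per kb, but it shares 631 exon bases with *Fam13b* on the opposite strand, and the strand setting of the counting is not given in the sources used here. *Pkd2*, polycystin-2 of the primary cilium and the endoplasmic reticulum, had 5.55 ± 0.439 CPM per kb. At the other end, *Trpv5* and *Mcoln3* had 0 reads in every library, and 3 more genes of the list (*Trpm5*, *Trpm8*, and *Mcoln2*) were under the filter of 0.1 CPM. *Trpc2*, at 1.83 CPM per kb, shares 2803 of its 2874 exon bases with *Xntrpc* and is uncertain.

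**Figure D2:**
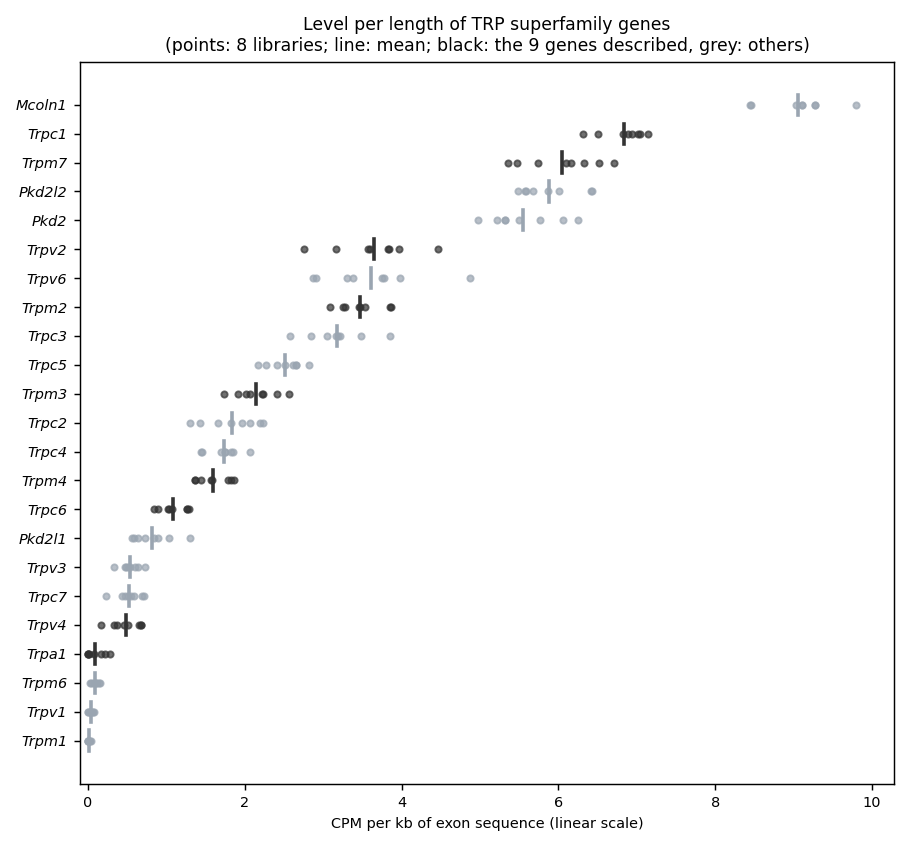
Each row is 1 TRP superfamily gene with a mean of at least 0.1 CPM, each point is 1 of 8 libraries in CPM per kb of exon sequence (x axis, linear), and the line is the mean, black for the 9 genes described and grey for the others. *Trpc1* and *Trpm7* lie near the top at 6.83 and 6.05 CPM per kb, below *Mcoln1* at 9.06, and *Trpa1* lies near 0.

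The 9 genes differed in how much they varied among the libraries. *Trpc1* was the steadiest of the 9, with a coefficient of variation of 4.16% over 8 libraries, where counting error alone gives 4.28%. *Trpc6* varied by 15.9%, close to its counting error of 13.6%. *Trpm3* varied by 12.5% with a counting error of 4.40%, and *Trpm7* by 8.02% with 3.83%. *Trpv2* varied by 14.2% with 7.83%, *Trpm4* by 12.6% with 7.65%, and *Trpm2* by 7.99% with 4.83%. The variation of *Trpv4*, 38.4% against 22.4%, rests on 6 to 31 reads per library. The table therefore measured 7 of the 9 genes with at least 10 reads in every library, all but *Trpa1* and *Trpv4*.

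The first comparison set the 3 BCAS libraries labelled WT against the 3 labelled TRPA1-KO, the contrast of the study. Differences are of log2(CPM + 1), WT label minus TRPA1-KO label, a scale that understates the change of low genes. All 9 genes passed the filter of a mean of at least 0.1 CPM, and *Trpa1* passed it through its label TRPA1-KO libraries. An unadjusted limma p under 0.05, the threshold of the study, was met by 1 of the 9 genes (*Trpa1*), where 4.2% of all 18123 tested genes met it. None of the 9 had an adjusted p under 0.05, which 0.0166% of all tested genes had. In 3 of the 9 (*Trpa1*, *Trpv2*, and *Trpc1*) the groups did not overlap, as in 9.21% of all tested genes. The median difference of the 9 genes was -0.11, against 0.0010 over all tested genes, with 3 above and 6 below 0. *Trpa1* is the lowest of the 9, so this median does not depend on its value.

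*Trpa1* itself had a fitted difference of -0.78 (SE 0.21, limma p = 0.0039, adjusted p = 0.98, exact permutation p = 0.10). With the 3 BCAS libraries labelled WT at 0 this fitted value is not a bound, and it depends on the value added before the logarithm.

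*Trpv2* lies on the plus strand of chromosome 11 from 62574486 to 62600515 and overlaps no annotated gene. In the BCAS libraries of days 7, 10, and 14 it had 16.0, 12.4, and 16.1 CPM under the WT label. Under the TRPA1-KO label it had 20.0, 17.2, and 17.8 CPM. All 3 values under the TRPA1-KO label were above all 3 under the WT label, but the sham libraries went the other way, with 17.2 CPM for the label WT and 14.2 CPM for TRPA1-KO. The difference was -0.30 (SE 0.14, 95% interval -0.61 to 0.02, limma p = 0.063, adjusted p = 0.98), and the exact permutation p was 0.10. With 1 library left out the difference lay between -0.36 and -0.18, the smallest without WT-label day 10. It met a limma p under 0.05 without WT-label day 7 (-0.35, limma adjusted p = 0.999) or day 14 (-0.36, limma adjusted p = 0.49). With every library, shams included, it was -0.16 (limma adjusted p = 0.999, exact permutation p = 0.34), and between -0.30 and -0.048 with 1 library left out.

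*Trpv4* lies on the minus strand of chromosome 5 from 114622152 to 114658421, also with no overlapping gene. It had 2.76, 1.51, and 2.74 CPM on BCAS days 7, 10, and 14 under the WT label, from 31, 12, and 25 reads. Under the TRPA1-KO label it had 0.668, 1.39, and 1.87 CPM, from 6, 13, and 18 reads. The groups overlapped, since day 10 under the WT label was below day 14 under the TRPA1-KO label. The sham libraries, at 2.11 CPM for the label WT and 2.69 CPM for TRPA1-KO, were again in the other order. The difference of 0.54 (SE 0.26, 95% interval -0.04 to 1.12) did not pass the test (limma p = 0.063, adjusted p = 0.98), and the exact permutation p was 0.20. With 1 library left out it lay between 0.33, without day 7 under the TRPA1-KO label, and 0.73. It met a limma p under 0.05 without WT-label day 10 (0.73, limma adjusted p = 0.99) or TRPA1-KO-label day 14 (0.72, limma adjusted p = 0.95).

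*Trpc1*, on the minus strand of chromosome 9 from 95705082 to 95750375, had 52.2, 50.7, and 54.8 CPM on BCAS days 7, 10, and 14 under the WT label. It had 56.3, 56.5, and 57.3 CPM under the TRPA1-KO label. These groups did not overlap, but they were close, and the shams were nearly equal at 55.7 CPM (label WT) and 55.3 CPM (label TRPA1-KO). The difference was -0.11 (SE 0.07, 95% interval -0.27 to 0.05, limma p = 0.17, adjusted p = 0.98, exact permutation p = 0.10).

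The other 5 genes overlapped between labels in the BCAS libraries. *Trpm2* averaged 42.4 ± 5.01 CPM under the WT label and 44.8 ± 2.88 CPM under the TRPA1-KO label (SD, n = 3 each). *Trpm7* averaged 70.8 ± 5.49 and 68.4 ± 5.99 CPM in the same order. *Trpc6* averaged 5.29 ± 1.08 and 6.14 ± 0.597 CPM. Their differences on the log2 scale were -0.08, 0.05, and -0.19, and those of *Trpm3* and *Trpm4* were 0.09 and -0.12. With 1 library left out they lay between -0.17 and -0.013 for *Trpm2*, -0.020 and 0.11 for *Trpm7*, -0.32 and -0.075 for *Trpc6*, 0.021 and 0.19 for *Trpm3*, and -0.20 and -0.051 for *Trpm4*. None of the 5 had a limma p under 0.34. The widest of their 95% intervals was that of *Trpc6*, from -0.63 to 0.24, and the narrowest was that of *Trpm7*, from -0.15 to 0.25.

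Some cell type markers had a p under 0.05 between labels in the BCAS libraries. *Mog*, a myelin protein, was higher under the WT label by 0.51 (limma adjusted p = 0.16), as 1 of 6 oligodendrocyte markers with a p under 0.05. For all tested genes the share with such a p was 4.2%. Higher under the WT label with a p under 0.05 were also 2 of 4 oligodendrocyte precursor markers (*Gpr17* by 0.48 and *Vcan* by 0.29), 2 of 5 endothelial markers (*Pecam1* by 0.33 and *Ly6c1* by 0.27), and 1 of 6 astrocyte markers (*Aldh1l1* by 0.46). Lower under the WT label with a p under 0.05 were 1 of 6 striatal markers (*Penk*, -0.47) and 1 of 6 meningeal markers (*Slc22a6*, -0.70). The meningeal list went both ways. Without such a p, *Col1a1*, *Col1a2*, and *Dcn* were higher under the WT label (0.52, 0.25, and 0.38), and *Igf2* and *Ptgds* were lower (-0.25 and -0.06). None of the neuronal, pericyte, ependymal, and choroid plexus markers had a p under 0.05. Of the microglial markers *Cx3cr1*, *P2ry12*, *Tmem119*, *Csf1r*, and *Aif1*, 2 of 5 were higher under the WT label with a p under 0.05 (*Tmem119* by 0.55 and *Csf1r* by 0.60). Beside *Mog*, none of the markers named here had a limma adjusted p below 0.98. The 5 microglial markers summed to 429 CPM on day 7 and 298 CPM on day 10 under the WT label and to 177 to 247 CPM in the 6 other libraries, and *Csf1r* was the most abundant of the 5 at 120 CPM. The most abundant genes of the precursor, endothelial, astrocyte, striatal, and meningeal lists were *Gpr17*, *Flt1*, *Slc1a2*, *Ppp1r1b*, and *Ptgds*. The summed astrocyte markers were 5015 and 4838 CPM in the same 2 libraries and 3472 to 4724 CPM in the others. On day 14 after BCAS both sums were lower under the WT label than under the TRPA1-KO label, at 194 against 247 CPM for microglia and 3803 against 4724 CPM for astrocytes. Among them *Gfap*, the filament protein of reactive astrocytes, had 1415, 1060, and 157 CPM on BCAS days 7, 10, and 14 under the WT label. It had 167, 169, and 427 CPM under the TRPA1-KO label, and 200 and 234 CPM in the shams labelled WT and TRPA1-KO. The groups overlapped and its difference between labels did not pass the test (1.43, limma adjusted p = 0.98). No marker was at 0 in every library, and the part of these cells in the *Trpv2*, *Trpv4*, and *Trpc1* values was not tested.

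All 8 libraries were then compared by label, with the operation as a term. A limma p under 0.05 was met by 1 of the 9 genes, against 3.87% of all tested genes, and an adjusted p under 0.05 by 0, against 0.0552%. *Trpa1* was that gene, with a difference of -0.80 (SE 0.17, limma p = 0.00067, adjusted p = 0.57, exact permutation p = 0.0286), lower under the WT label in 4 of 4 libraries. It was also the only 1 of the 9 whose groups did not overlap, against 2.46% of all tested genes. For the other 8 genes the limma p lay between 0.17 and 0.41. *Trpc1*, with 53.3 ± 2.31 CPM (label WT) against 56.4 ± 0.818 CPM (label TRPA1-KO; SD, n = 4 each), had the next lowest exact permutation p at 0.0571. The median difference was -0.09 for the 9 genes and 0.0021 for all tested genes. The libraries of this comparison include those of the BCAS comparison, so the 2 readings share their values.

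The next comparison set the 6 BCAS libraries against the 2 sham libraries, with the label as a term. Each label has only 1 sham library, and both are from day 14, so BCAS days 7 and 10 have no sham of their own day. A limma p under 0.05 was met by 1 of the 9 genes (*Trpm3*), where 3.54% of all tested genes met it. None of the 9 had an adjusted p under 0.05, which 0.0% of all tested genes had with limma, a count of 0 at 642 genes with an unadjusted p under 0.05 (edgeR 0, DESeq2 11). In 2 of the 9, *Trpm3* and *Trpm4*, the groups did not overlap, as in 6.19% of all tested genes. The median difference was 0.07 for the 9 genes and -0.0013 for all tested genes.

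*Trpm3* lies on the plus strand of chromosome 19 from 22139046 to 22995410 with 24437 exon bases. It shares 277 and 351 of them with genes on the opposite strand that are not in the table (*Gm27151* and *C330002G04Rik*). The sham libraries had 46.9 CPM under the WT label and 42.5 CPM under the TRPA1-KO label. On BCAS days 7, 10, and 14 it had 59.0, 62.6, and 49.2 CPM under the WT label. Under the TRPA1-KO label it had 54.3, 54.5, and 50.5 CPM on the same days. All 6 BCAS libraries were above both shams, the closest being BCAS day 14 under the WT label.

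The mean of *Trpm3* was 55.0 ± 5.09 CPM after BCAS (SD, n = 6) and 44.7 ± 3.10 CPM after sham (SD, n = 2), a ratio of 1.23. The difference was 0.29 (SE 0.09, 95% interval 0.08 to 0.50, limma p = 0.0099, adjusted p = 0.9998), and the exact permutation p was 0.0714, the smallest that 6 against 2 can give. With BCAS of day 14 alone, the day of the shams, the difference was 0.16, and without the sham library labelled TRPA1-KO it was 0.27, and neither had an unadjusted limma p under the threshold. Between labels *Trpm3* differed by 0.09 in the BCAS libraries (95% interval -0.13 to 0.31).

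*Trpm4* lies on the minus strand of chromosome 7 from 45302632 to 45333780. It had 14.8 CPM under the WT label and 14.9 CPM under the TRPA1-KO label in the sham libraries. After BCAS it had 17.2, 15.6, and 19.3 CPM on days 7, 10, and 14 under the WT label. Under the TRPA1-KO label it had 20.1, 19.8, and 17.0 CPM. Every BCAS value was above both shams, and the days had no order common to both labels. The ratio of the means was 1.22, and the difference of 0.27 (SE 0.12, 95% interval -0.002 to 0.54) missed the threshold (limma p = 0.051, adjusted p = 0.9998, exact permutation p = 0.0714). The threshold was met with edgeR's quasi-likelihood test on the recovered reads (a log2 fold change of 0.29).

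**Figure D3:**
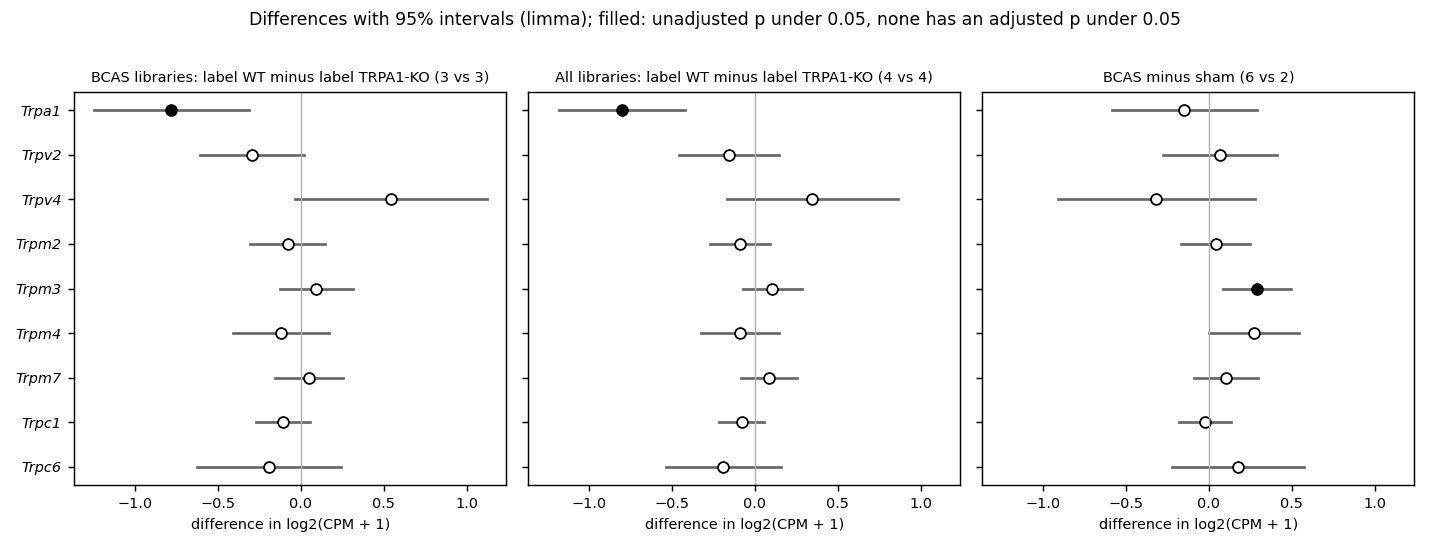
For each of the 9 genes (y axis) the point is the difference in log2(CPM + 1) (x axis) and the line its 95% interval from limma, for the label WT minus TRPA1-KO in the BCAS libraries, the same in all libraries, and BCAS minus sham. Filled points have an unadjusted p under 0.05, which are *Trpa1* at -0.78 and -0.80 in the label comparisons and *Trpm3* at 0.29 after BCAS, and no gene has an adjusted p under 0.05.

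Other cell type markers differed between the same groups. The 6 oligodendrocyte markers summed to 14739 (label WT) and 16194 CPM (label TRPA1-KO) in the sham libraries and to between 12077 and 13689 CPM after BCAS. All 6 were lower after BCAS on average, 2 of them with a p under 0.05, where 3.54% of all tested genes had such a p, and *Mbp* was the most abundant. The 6 striatal projection neuron markers summed to 998 and 1379 CPM in the sham libraries and to between 524 and 936 CPM after BCAS, and all 6 were lower with a p under 0.05. *Ppp1r1b* was the most abundant of these, with a difference of -0.64. *Trpm3* and *Trpm4* were thus higher in the libraries with lower sums of both marker lists, and the part of these cells in their values was not tested. A p under 0.05 was also found for 2 of 4 oligodendrocyte precursor markers, both lower after BCAS (-0.21 and -0.31). The same held for 1 of 6 meningeal markers, which was higher after BCAS (*Col1a2*, 0.49), and 1 of 6 choroid plexus markers (*Clic6*, -0.48). *Clic6* was the only 1 of the 6 choroid plexus markers that was lower after BCAS on average. Choroid plexus epithelium is known for high *Trpm3*, and its markers were low throughout, with a sum of 3.28 to 9.78 CPM over the 8 libraries. The choroid plexus sums of the shams, 4.38 and 5.75 CPM, lay within the BCAS range of 3.28 to 9.78 CPM, and the most abundant gene was *Clic6* at 1.92 CPM. No choroid plexus marker was at 0 in every library, and the part of choroid plexus in the *Trpm3* values was not tested.

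**Figure D4:**
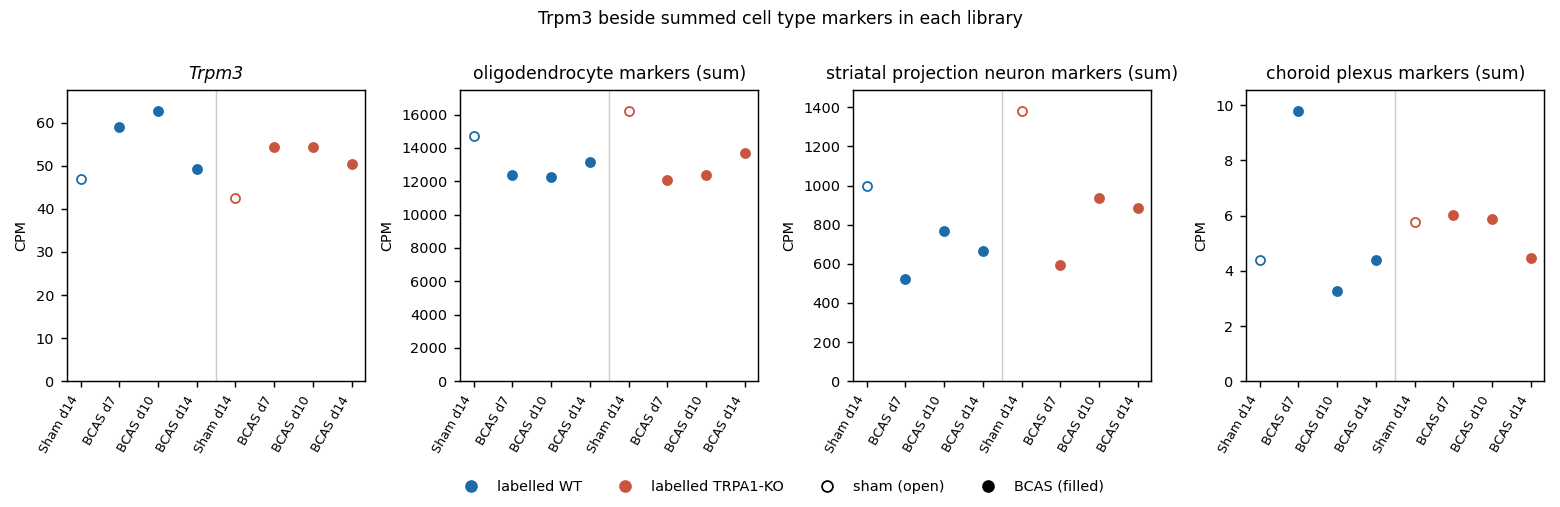
The panels plot *Trpm3* and the summed markers of oligodendrocytes, striatal projection neurons, and choroid plexus in CPM (y axis, linear, from 0) in each of the 8 libraries (x axis, operation and day), blue for the label WT, red for TRPA1-KO, open for sham and filled for BCAS. The sham libraries are lowest for *Trpm3* (42.5 and 46.9 CPM) and highest for the oligodendrocyte and striatal sums, while the choroid plexus sums of the shams lie within the range after BCAS.

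The other 7 genes did not separate BCAS from sham. *Trpm7*, on the minus strand of chromosome 2 from 126791565 to 126876230, had 69.0 CPM (label WT) and 60.6 CPM (label TRPA1-KO) in the sham libraries. After BCAS it had 75.9, 71.6, and 65.0 CPM on days 7, 10, and 14 under the WT label. Under the TRPA1-KO label it had 61.9, 73.7, and 69.7 CPM. The groups overlapped, and the difference was 0.10 (95% interval -0.09 to 0.29, limma p = 0.28, adjusted p = 0.9998, exact permutation p = 0.29).

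*Trpm2* lies on the minus strand of chromosome 10 from 77907722 to 77970563 and shares 44 and 47 of its 12459 exon bases with small nucleolar RNA genes that are not in the table. The sham libraries had 40.5 CPM (label WT) and 44.0 CPM (label TRPA1-KO). After BCAS it had 40.8, 38.4, and 48.1 CPM under the WT label and 48.1, 43.0, and 43.2 CPM under the TRPA1-KO label, days in order. Both sham values lay within the range after BCAS, and the difference was 0.04 (95% interval -0.17 to 0.25). The ratio of the means of this oxidant-linked channel was 1.03.

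*Trpc6*, on the plus strand of chromosome 9 from 8544142 to 8680741, had 4.54 CPM (label WT) and 5.27 CPM (label TRPA1-KO) in the sham libraries. It had 5.16, 6.43, and 4.28 CPM after BCAS under the WT label and 5.45, 6.41, and 6.55 CPM under the TRPA1-KO label, days in order. The lowest of all libraries was BCAS day 14 under the WT label, from 39 reads. Its difference from sham was 0.18 (95% interval -0.22 to 0.58). The differences of *Trpc1*, *Trpv2*, *Trpv4*, and *Trpa1* from sham were -0.02, 0.07, -0.32, and -0.15, with limma p of 0.27 or above. At the depth of 55 reads in the shams together and 105 after BCAS, the interval of *Trpv4* ran from -0.91 to 0.28.

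Whether the BCAS difference itself differed between labels was tested as an interaction, which rests on 1 sham library per label. A limma p under 0.05 was met by 0 of the 9 genes, against 1.5% of all tested genes, and an adjusted p under 0.05 by 0 of them, against 0.0% of all tested genes, a count of 0 at 271 genes with an unadjusted p under 0.05 (edgeR 0, DESeq2 0). The lowest p of the 9 was that of *Trpv2*, with an interaction of -0.56 (95% interval -1.19 to 0.07, limma adjusted p = 0.9998). For *Trpm3* it was -0.05 (95% interval -0.49 to 0.40). For *Trpm4* it was -0.11 (95% interval -0.70 to 0.47).

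Of the 19 other TRP genes, 14 were tested, and none had a limma p under 0.05 in any of the 4 comparisons. The shares of all tested genes were 4.2%, 3.87%, 3.54%, and 1.5% in these comparisons (labels in the BCAS libraries, labels in all libraries, BCAS against sham, and interaction), so a count of 0 among 14 genes is near the background. Their median differences were -0.01 and -0.02 between labels (BCAS libraries and all libraries) and -0.0006 between BCAS and sham. *Mcoln1* differed by 0.003 between labels in the BCAS libraries (95% interval -0.17 to 0.18) and by 0.06 between BCAS and sham (95% interval -0.11 to 0.22). *Pkd2* and *Pkd2l2* differed between labels in the BCAS libraries by -0.001 and 0.07.

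TRPC channels open downstream of phospholipase C and work beside the store-operated machinery, so 11 partners of calcium entry were read as a list (sensors *Stim1* and *Stim2*, the *Orai* pores, inositol trisphosphate receptors, and phospholipases C). In the BCAS libraries 2 of the 11 were higher under the WT label at a p under 0.05 and none was lower, where 4.2% of all tested genes had such a p in either direction. In 1 of the 11 (*Plcg1*) the groups did not overlap, as in 9.21% of all tested genes. *Plcg1* averaged 89.8 CPM under the WT label and 99.1 CPM under the TRPA1-KO label (limma p = 0.082, adjusted p = 0.98, exact permutation p = 0.10). Over all 8 libraries its groups did not overlap either (limma p = 0.055, adjusted p = 0.999, exact permutation p = 0.0286), as in 2.46% of all tested genes. *Plcg1* was named for this lack of overlap, which by itself gives the smallest permutation p that each comparison allows, so neither permutation p is a separate result. *Itpr2*, the inositol trisphosphate receptor typical of glia, had 43.8, 45.9, and 34.1 CPM on BCAS days 7, 10, and 14 under the WT label. It had 26.2, 30.2, and 34.3 CPM under the TRPA1-KO label. The groups overlapped on day 14, and the difference was 0.43 (SE 0.13, limma p = 0.0093, adjusted p = 0.98, exact permutation p = 0.20). The summed astrocyte markers were likewise highest on days 7 and 10 under the WT label (5015 and 4838 CPM), and in the BCAS libraries labelled TRPA1-KO both *Itpr2* and this sum (4724 CPM) were highest on day 14. The part of astrocytes in the *Itpr2* values was not tested. Over all 8 libraries the difference of *Itpr2* was 0.36 (limma p = 0.011, adjusted p = 0.999), and its exact permutation p was 0.0571.

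*Plcg2*, a phospholipase C of immune cells, had 16.0, 7.81, and 4.06 CPM on BCAS days 7, 10, and 14 under the WT label and 3.78, 4.48, and 4.27 CPM under the TRPA1-KO label. Its difference of 0.82 (SE 0.36, limma p = 0.048, adjusted p = 0.98, exact permutation p = 0.30) came with the microglial sums given above, which were also highest on days 7 and 10 under the WT label. Without day 14 under the WT label it was 1.24 (limma adjusted p = 0.13), and without any other 1 of the BCAS libraries it no longer met a limma p under 0.05. The lowest value was 0.37, without day 7 under the WT label. Without the filter on low values it did not meet that threshold either (limma adjusted p = 0.87), which leaves *Itpr2* as the 1 of the 2 that met it. The part of microglia in it was not tested. Neither gene had a p under 0.05 between BCAS and sham, nor did any other of the 11.

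As TRPA1 and TRPM2 respond to oxidants, 16 genes that make or clear hydrogen peroxide or handle ADP-ribose were read as a list. None of the 16 had a limma p under 0.05 in any of the 4 comparisons, which is near the background shares of 1.5% to 4.2% given above. Their median differences were 0.13 and 0.10 between labels (BCAS libraries and all libraries), with 12 and 14 of 16 above 0, and 0.04 between BCAS and sham, with 13 of 16 above 0. Of all 18123 tested genes, 9114, 9189, and 8972 were above 0 in these comparisons. The microglial and astrocyte sums given above were highest on BCAS days 7 and 10 under the WT label. The part of these cells in the differences of this list was not tested.

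For the 7 genes with at least 10 reads in every library, the genes most alike in pattern were sought among 14197 genes by Pearson's r of log2(CPM + 1) over the 8 libraries. With so many genes and so few libraries, high values of r can arise for any pattern, so these are descriptions. *Trpm3* was most like *Efemp1* (r = 0.986), *Tnfaip1* (0.968), and *Extl2* (0.967). *Trpm4* was most like *Podxl2* (0.996), *Fastk* (0.980), and *Pla2g4e* (0.959). *Trpm7* was most like *Ccnq* (0.990), and *Trpc1* was most like *Tmem218* (0.970). *Trpv2* was most like *Tomt* (0.966), and *Trpc6* was most like *Rgl3* (0.958). For *Trpm2* the nearest were *Gm13306*, *Ccl27b*, and *LOC100861978* (each 0.978), near-identical gene copies with the same values, so they count as 1 pattern.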

How the data were processed

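RNA sequencing of polyadenylated RNA was available for 8 corpus callosum libraries. The authors mapped reads to GRCm38 with HISAT, counted them per gene with subread, and normalised them with edgeR. The submitters' processing notes name HISAT2, featureCounts, Subread, and edgeR. The annotation and the strand setting are not given in the sources used here. The deposited signal is edgeR-normalised CPM, not log-transformed. Divided by the lowest nonzero value of its library, 100% of the deposited signal came out whole (tolerance 0.001), and these quotients were taken as reads. No column was without a sample (0 columns).

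The test was limma 3.58.1 in R 4.3.3 (lmFit, eBayes with trend, two-sided) on log2(CPM + 1). It covered 18123 of 25239 genes, those that averaged 0.1 CPM or more, with Benjamini-Hochberg adjustment over all of them. The analysis had been planned for normalised values, and that test was kept. Single values were also given exact permutation tests over libraries (scipy 1.17.1). On the recovered reads, edgeR 4.0.16 and DESeq2 1.42.0 were alternatives. Between labels in the BCAS libraries, edgeR gave 962 genes a p under 0.05, limma 761, and DESeq2 595. Also varied were the value added before the logarithm (0.1), the filter (none, or 1 CPM), the scaling (equal library medians), the libraries (each left out, day 14 alone, or all 8 fitted together), and the day, entered as a replicate block. The scripts were tested on simulated data.

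Lengths and positions came from GENCODE M21 (24321 symbols with 1 gene), and promoters and microRNAs from RefSeq GRCm38.p6. Named were all 9 members, the 3 other TRP genes with the highest level per length, genes of the fixed lists with a limma p under 0.05, and the 3 genes most alike in pattern to each member with 10 reads in every library, of which the text gives up to 3. Markers named are the most abundant of their lists, those with a p under 0.05 between labels, *Gfap*, and the rest of the meningeal list. All but the first kind were chosen after their values were seen. *Plcg1*, *Orai2*, *Gpx4*, and *Trpc7* were also named after their values were seen, because their groups did not overlap. Of the microglial list, 1 marker is not reported here. The members and lists were chosen with earlier results of these data known. The days were not taken as pairs.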

Additional observations from a re-analysis of the deposited data

Results flagged for a closer look

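Of 27 groups of 4 to 6 libraries examined for a sample that stands apart from the rest (Dixon's test at 95%), 1 did, where chance alone gives about 1 in 20. It was *Trpa1* among the libraries labelled WT, where the sham library stood at 0.0782 CPM and the other 3 at 0. That value is 1 read.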

How the results depend on the processing

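No member had an adjusted p under 0.05 in any comparison under any alternative. Between labels in the BCAS libraries, members with a p under 0.05 were 0 with the filter at 1 CPM, which removes *Trpa1*, and 1 to 2 with 1 library left out, the second being *Trpv2* or *Trpv4*. Genes with an adjusted p under 0.05 were 1 without the filter, 17 with DESeq2, and 1 to 29 with 1 library left out, and genes with an unadjusted p under 0.05 were then 325 to 1846. *Trpm7* reversed without the BCAS day 7 library labelled WT (-0.0012) or TRPA1-KO (-0.020), and lay between -0.020 and 0.11 with 1 library left out. Over all libraries, members with a p under 0.05 were 0 at 1 CPM and 1 to 2 with 1 library left out (*Trpm3* without WT-label BCAS day 14), and genes were 5 without the filter and 3 to 16 with 1 left out (adjusted) or 414 to 1305 (unadjusted). The *Trpa1* permutation p was 0.10 in the BCAS libraries alone and 0.0571 without any 1 library, the smallest value each allows.

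Between BCAS and sham, 2 members had a p under 0.05 (*Trpm3* and *Trpm4*) with a pseudocount of 0.1, no filter, the filter at 1 CPM, or edgeR, 0 with day 14 alone, and 0 to 2 with 1 library left out. *Trpm3* was positive in 15 of 15 alternatives (0.16 to 0.34), with a p under 0.05 in 13. DESeq2 gave 11 genes an adjusted p under 0.05, and 357 to 917 genes had an unadjusted p under 0.05 with 1 library left out. Reversed were *Trpc1* without the sham library labelled WT and with day 14 alone (0.013), *Trpm2* without BCAS day 14 labelled WT, and *Trpv2* and *Trpv4* without the sham library labelled TRPA1-KO. With 1 library left out, *Trpc1* lay between -0.084 and 0.035, *Trpm2* between -0.0035 and 0.071, *Trpv2* between -0.21 and 0.35, and *Trpv4* between -0.71 and 0.076. In the same way *Trpm7* lay between 0.034 and 0.17, *Trpc6* between 0.12 and 0.23, and *Trpa1* between -0.23 and -0.057. For the interaction, genes with a p under 0.05 were 629 without the filter, 98 with DESeq2, and 161 to 723 with 1 library left out, and it could not be fitted without a sham library. The causes were not tested.

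Taking the day as a replicate block, genes with an adjusted p under 0.05 between labels in the BCAS libraries were 1 in place of 3. With matched operation and day as pairs over all libraries, chosen after seeing the data, they were 6 in place of 10. The block changed no member's call. Same-day libraries deviated from their group means with correlations of -0.10, 0.0051, and -0.26 on days 7, 10, and 14 (10744 genes), and 0 of 6 libraries correlated best with their own day, so the days were not taken as pairs. Depth limits *Trpa1* (0 to 11 reads per library) and *Trpv4* (6 to 31 reads).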
